A study of Mus musculus with 3 samples.

Results

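The genes described here are those of potassium channels and of the proteins that assemble with them. They were taken as every mouse gene symbol that starts with Kcn, together with Dpp6 and Dpp10, which gave 101 genes among 32285 features. Their levels were followed in horizontal cells, the inhibitory interneurons of the outer retina, in 3 single-cell libraries made at P6, P8 and P11, that is 6, 8 and 11 days after birth. Retinas of mice of genotype Cx57icre;Ai14, the same at every age, were dissociated with papain, and labelled cells were sorted by fluorescence and loaded for droplet capture with the 3' chemistry of 10x Genomics. Cx57icre expresses Cre from the gene of connexin 57, a gap junction protein that mouse retina makes in horizontal cells, and Ai14 makes a red fluorescent protein wherever Cre has acted. The sources used here give neither the number of mice nor their sex or strain, and there was 1 library per age. Differences of age therefore cannot be told apart from differences of library, and no test between ages was made.

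A potassium channel lets potassium leave or enter a cell along its gradient, and the mixture of channels in a neuron sets its resting potential, its input resistance and the time course of its responses. Voltage-gated (Kv) channels open on depolarization, inward rectifiers (Kir) pass current best at negative potentials, and K2P channels, whose subunits each hold a pair of pore domains, carry leak current. Horizontal cells respond to light with graded hyperpolarization instead of trains of spikes, and in fish an inward rectifier current, long called the anomalous rectifier, together with a transient A-type current are classical features of these cells.

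A barcode counted as a horizontal cell when it had at least 1000 detected genes, at most 10% mitochondrial UMIs (unique molecular identifiers, each marking 1 captured transcript), and a UMI of at least 2 of the 3 lineage genes Lhx1, Onecut1 and Onecut2. This kept 7145 of 9896 barcodes at P6, 3153 of 4635 at P8 and 4757 of 5517 at P11, with a median of 12161, 20671 and 22106 UMIs per cell. Their counts summed to 82305608, 62520239 and 103160766 UMIs, and levels are given as counts per 1000000 of these sums (CPM). The 10 horizontal cell markers, 3 of which define the cells, summed to 7822, 12036 and 19428 CPM, against 15.2, 13.6 and 11.1 CPM for rod markers and 1.42, 0.992 and 1.39 CPM for cone markers. Amacrine and ganglion cell markers summed to 7320, 9805 and 4966 CPM and to 2033, 2282 and 1384 CPM, most of it Npy in the first list and Nefl and Sncg in the second. The libraries shared 8 to 15 barcodes pairwise. Intervals are exact at the 95% level and cover counting error only.

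Of the 101 genes, 36 reached 5 CPM at 1 or more ages, 12 stood between 1 and 5 CPM at their highest age, 53 stayed under 1 CPM and 9 of these had no UMI at any age. Among the 36, the highest age was P6 for 26, P11 for 9 and P8 for 1. Summed over all 101, these genes took 4299 CPM in the P6 library, 1790 CPM in the P8 library and 2442 CPM in the P11 library. A UMI counts a transcript end and not its length, but genes are captured with unequal efficiency, so levels of different genes are set side by side only as UMI levels.

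**Figure D1:**
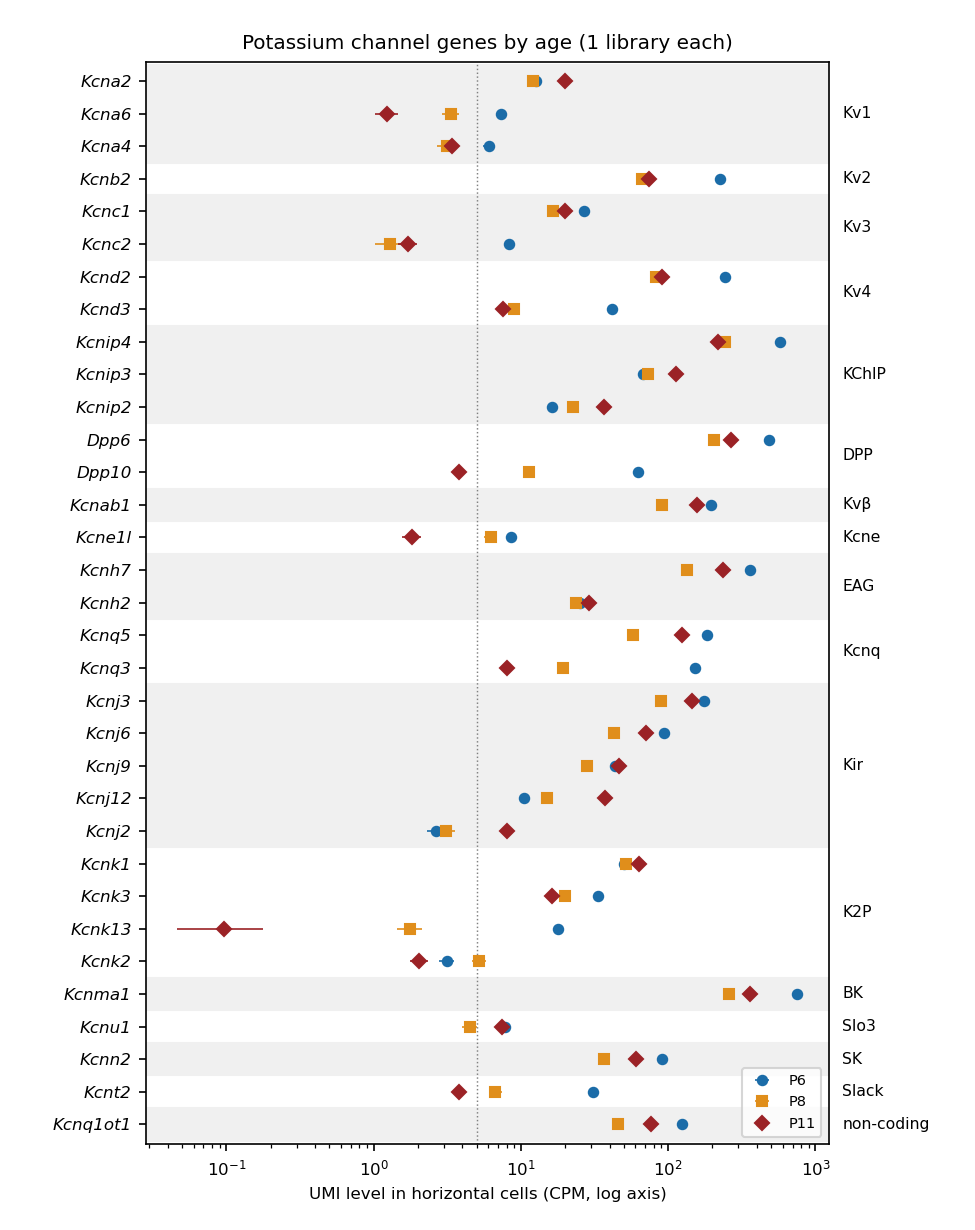
UMI level (CPM, log axis) of 33 of the 36 potassium channel genes and partners that reached 5 CPM (dotted line), by channel family, in horizontal cells of the P6, P8 and P11 libraries. Bars are exact 95% Poisson intervals, mostly hidden by the symbols. Kcnk13, Kcnq3 and Dpp10 lie far to the left at P11, and Kcnj12, Kcnj2 and Kcnip2 are the genes at least 2-fold to the right at P11 of their P6 value.

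Between P11 and P6, 35 of the genes were measured, meaning that they had at least 5 CPM at the higher of both ages. Of these, 3 were at least 2-fold higher at P11 (Kcnj12, Kcnj2 and Kcnip2) and 13 were at least 2-fold lower, while 19 lay within 2-fold. Over all 10514 measured features, 2.84% passed the higher limit and 7.05% the lower one. The median log2 ratio was -0.62 for the channel genes and -0.09 for all measured features. The 13 lower genes were Kcnk13, Kcnq3, Dpp10, Kcnt2, Kcna6, Kcnd3, Kcnc2, Kcne1l, Kcnb2, Kcnd2, Kcnip4, Kcnma1 and Kcnk3, and in 9 of them the P8 level lay between the other ages.

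Potassium channel genes are long, and gene length went with age in these libraries. The 36 genes spanned a median of 96.2 kb of genome, against 26.7 kb for all features at the same minimum. In the longest span quintile (genes sorted by span into 5 equal groups), 14.3% passed the lower limit between P11 and P6 and 2.19% the higher one. With the median of its span quintile subtracted from each gene, the median log2 ratio of the channel genes was -0.32, and 14 of the 16 genes beyond 2-fold stayed beyond it, all but Kcnma1 and Kcnk3. The share of this length pattern in the individual genes was not tested.

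The P8 library showed the length pattern most. Between P8 and P6, 0 of 35 measured channel genes passed the higher limit and 18 the lower one, against 1.74% and 10.7% of 10407 measured features, and against 0.481% and 31.2% in the longest span quintile. The median log2 ratio of the channel genes was -1.12, and -0.57 after subtraction of the span medians. After that subtraction 7 of the 18 stayed at least 2-fold lower, namely Kcnk13, Kcnq3, Dpp10, Kcnt2, Kcnd3, Kcnc2 and Kcnb2. P8 was the lowest age for 58.3% of the 36 genes and for 48.0% of all features at the same minimum, and Malat1, a nuclear non-coding RNA, was also lowest there, at 20337, 15319 and 21409 CPM.

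**Figure D2:**
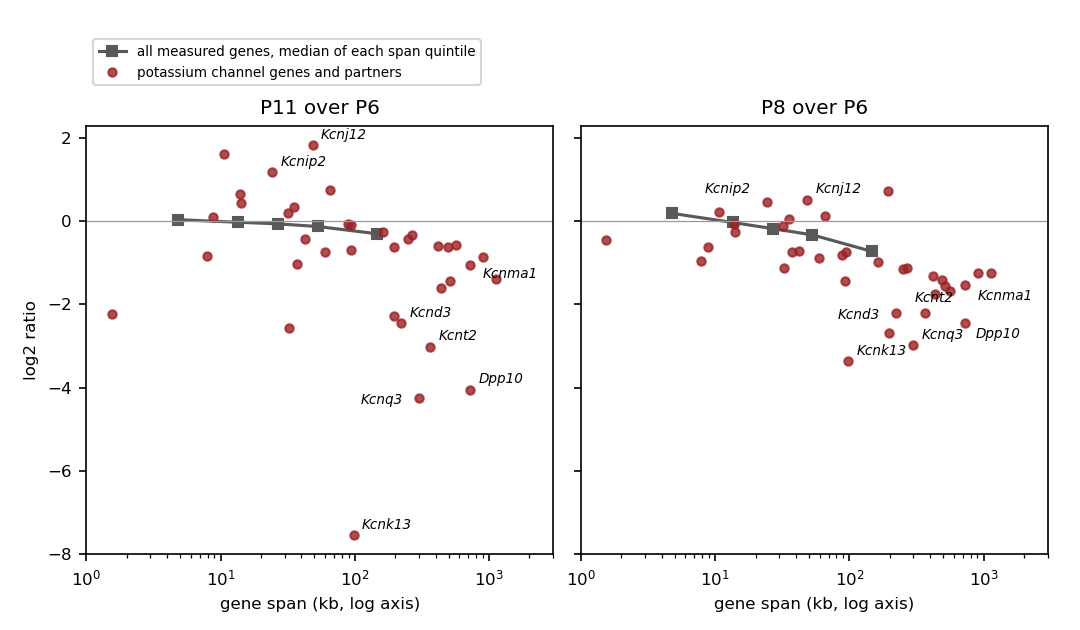
Log2 ratio of P11 over P6 (left) and of P8 over P6 (right) against gene span (kb, log axis) for the 36 potassium channel genes and partners (circles), with the median of all measured genes in each span quintile (squares joined by a line). The line ends at -0.30 on the left and at -0.72 on the right, and Kcnk13, Kcnq3, Dpp10, Kcnt2 and Kcnd3 lie below it in both panels.

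The Kv4 complex underlies the A-type current of many neurons. Its pore is formed by Kv4 subunits (Kcnd genes), bound inside the cell by the calcium-binding KChIP subunits (Kcnip genes) and in the membrane by Dpp6 or Dpp10, relatives of a peptidase that lack enzyme activity and speed the gating of the channel. All 9 genes together had 1494, 649 and 741 CPM at P6, P8 and P11. Its genes did not keep their proportions, since Kcnip2 was 2.27-fold higher and Dpp10 16.5-fold lower at P11 than at P6.

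Of the pore genes, Kcnd2, which encodes Kv4.2, had 243 CPM at P6, 82.6 CPM at P8 and 90.6 CPM at P11, and was 2.68-fold lower (95% counting interval 2.62 to 2.75) at P11 than at P6. Kcnd3, which encodes Kv4.3, had 41.7 CPM at P6, 9.04 CPM at P8 and 7.600 CPM at P11, 5.49-fold lower (95% counting interval 5.08 to 5.94). Kcnd1 stayed under 5 CPM. Kcnd3 thus made up 14.5%, 9.64% and 7.61% of Kv4 UMIs at P6, P8 and P11, and Kcnd2 made up 84.6%, 88.2% and 90.7%. Kcnd3 overlaps another annotated gene on its strand, so reads in the overlap cannot be told apart.

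Among the KChIP genes, 2 were higher at P11 than at P6 and 2 lower. Kcnip4 had 573 CPM at P6, 244 CPM at P8 and 218 CPM at P11, 2.62-fold lower (95% counting interval 2.58 to 2.67) at P11. Kcnip3, whose protein was also described as the transcriptional repressor DREAM, had 67.0 CPM at P6, 72.7 CPM at P8 and 113 CPM at P11, 1.69-fold higher (95% counting interval 1.64 to 1.75), short of the 2-fold threshold. Kcnip2, the KChIP best known from cardiac muscle, had 16.3 CPM at P6, 22.5 CPM at P8 and 36.9 CPM at P11, 2.27-fold higher (95% counting interval 2.13 to 2.41). Kcnip4 accordingly made up 86.6%, 71.5% and 59.1% of KChIP UMIs at P6, P8 and P11, Kcnip3 10.1%, 21.3% and 30.7%, and Kcnip2 2.46%, 6.600% and 9.99%. Kcnip2 was higher at P8 than at P6 too, and spans only 24.2 kb, in a span quintile whose median log2 ratio was -0.06 between P11 and P6 and -0.18 between P8 and P6. Kcnip1 stood just under the 5 CPM minimum, at 4.99, 1.81 and 0.785 CPM (named after its values were seen).

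The peptidase-like genes were both lower at P11, but by very different folds. Dpp6 had 483 CPM at P6, 203 CPM at P8 and 268 CPM at P11, 1.80-fold lower (95% counting interval 1.78 to 1.83) at P11 than at P6. Dpp10 had 62.4 CPM at P6, 11.4 CPM at P8 and 3.78 CPM at P11, with 5136, 715 and 390 UMIs, and was 16.5-fold lower (95% counting interval 14.9 to 18.3). Dpp10 made up 11.4%, 5.32% and 1.39% of the UMIs of the pair, so that by P11 nearly all UMIs of this class came from Dpp6. Both genes are among the longest of the set, Dpp6 at 910.3 kb and Dpp10 at 724 kb, and the span-adjusted log2 ratios were -0.55 for Dpp6 and -3.74 for Dpp10.

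**Figure D3:**
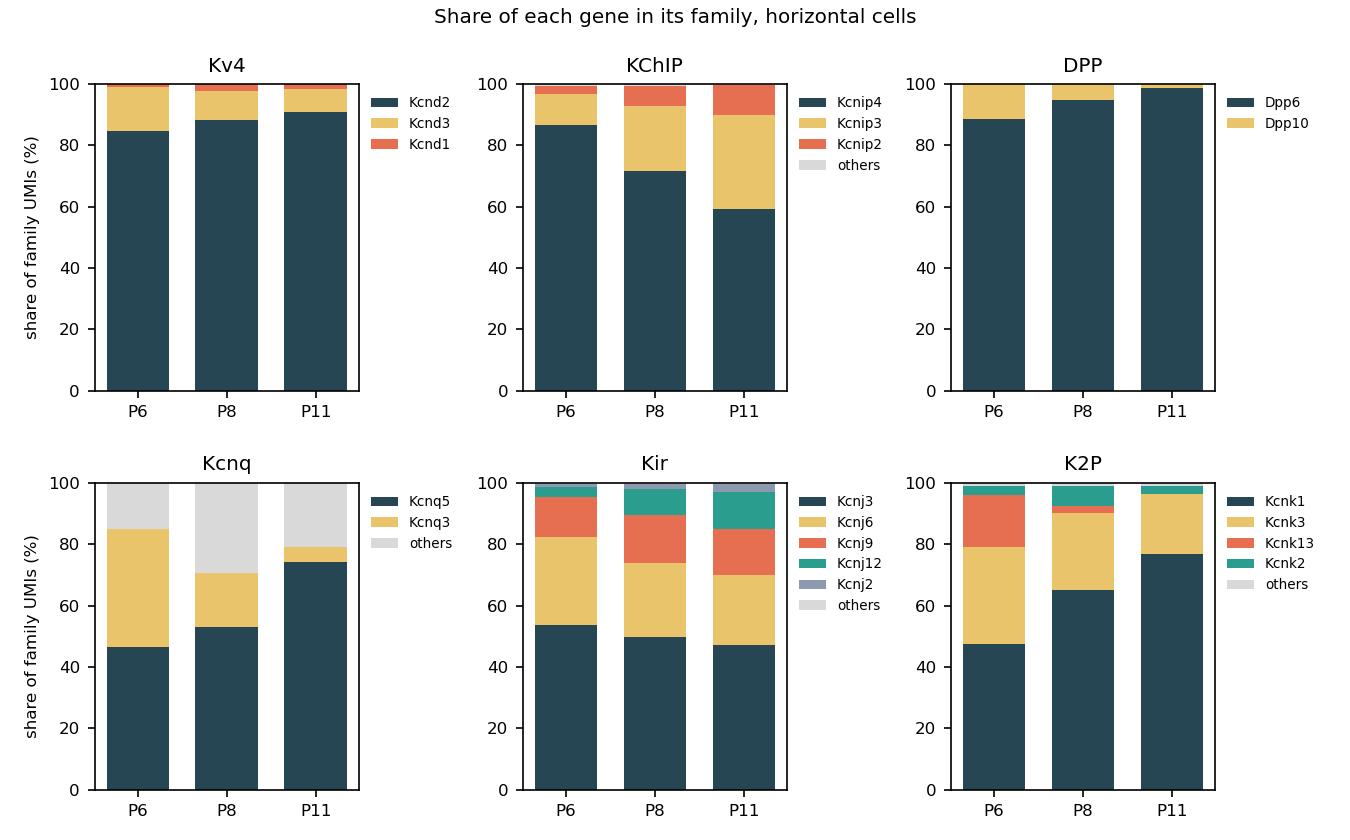
Share of each gene in the UMIs of its family (%, stacked bars) at P6, P8 and P11, for the Kv4 pore genes, the KChIP genes, Dpp6 and Dpp10, the Kcnq genes, the Kir genes and the K2P genes, with the genes not drawn on their own summed as others. Kcnip4 takes 86.6%, 71.5% and 59.1% of the KChIP bars, Kcnq3 38.5%, 17.7% and 4.79% of the Kcnq bars, and Kcnk13 17.03%, 2.22% and 0.117% of the K2P bars at P6, P8 and P11.

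The 250 bases upstream of the start are shown for the 4 genes that span the range of the comparison, Kcnk13 and Dpp10 among the lowest ratios of P11 to P6, and Kcnj12 and Kcnip2 among the highest. They come from RefSeq on build GRCm38.p6, which holds an entry for 74 of the 101 genes. Each is written 5′ to 3′ on the strand of its gene, in lower case, with capitals marking the CG dinucleotides, the sites of DNA methylation. The stretches lie at chr12:99964249-99964498 on the plus strand (Kcnk13), chr1:124045560-124045809 on the minus strand (Dpp10), chr11:61065554-61065803 on the plus strand (Kcnj12) and chr19:45816064-45816313 on the minus strand (Kcnip2).
Kcnk13: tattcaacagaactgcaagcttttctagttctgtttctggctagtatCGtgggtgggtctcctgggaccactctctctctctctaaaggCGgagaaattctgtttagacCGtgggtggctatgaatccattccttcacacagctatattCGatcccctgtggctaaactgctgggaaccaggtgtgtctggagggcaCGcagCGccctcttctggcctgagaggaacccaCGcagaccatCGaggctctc
Dpp10: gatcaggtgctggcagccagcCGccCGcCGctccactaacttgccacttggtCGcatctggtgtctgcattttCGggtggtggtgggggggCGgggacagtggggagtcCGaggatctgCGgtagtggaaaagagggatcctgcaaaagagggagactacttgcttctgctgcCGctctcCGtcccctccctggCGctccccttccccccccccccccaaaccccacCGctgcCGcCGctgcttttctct
Kcnj12: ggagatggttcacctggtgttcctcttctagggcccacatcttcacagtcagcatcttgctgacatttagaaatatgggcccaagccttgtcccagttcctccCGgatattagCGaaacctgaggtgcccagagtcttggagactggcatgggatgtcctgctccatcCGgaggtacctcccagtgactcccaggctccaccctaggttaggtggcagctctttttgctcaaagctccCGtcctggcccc
Kcnip2: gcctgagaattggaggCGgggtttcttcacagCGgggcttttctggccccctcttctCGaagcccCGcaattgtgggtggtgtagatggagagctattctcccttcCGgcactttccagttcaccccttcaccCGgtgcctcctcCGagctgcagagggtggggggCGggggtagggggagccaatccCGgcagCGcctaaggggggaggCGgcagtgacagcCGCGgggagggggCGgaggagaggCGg

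These stretches hold 8 CG in Kcnk13, 14 in Dpp10, 4 in Kcnj12 and 15 in Kcnip2, against a median of 6 over all 32851 promoters of the table. Among these 4 genes, chosen by their ratios, the count of CG did not separate those lower at P11 from those higher. So few genes cannot show whether it does so over the whole set. The Kcnj12 start is internal to the gene model, which also has a start farther upstream. None of the 4 stretches holds, on either strand, ATCAAT or ATCGAT (core sequences bound by Onecut factors, present in 6.72% and 0.728% of all promoters), TAATTA (a homeodomain core, 4.84%) or TATAAA (the TATA box, 12.4%). That says only that these letters are not in these windows.

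Kcnq genes encode Kv7 subunits, several of which form the channels of the M-current, a slow current that opens below spike threshold and is closed by muscarinic receptors. Kcnq5 subunits can combine with Kcnq3 in such channels. Kcnq3 had 153 CPM at P6, 19.4 CPM at P8 and 8.04 CPM at P11, from 12564, 1212 and 829 UMIs. The gene lies on chromosome 15, 65986387 to 66286642, minus strand of mm10. It was 19.0-fold lower (95% counting interval 17.7 to 20.4) at P11 than at P6 and 2.41-fold lower (95% counting interval 2.21 to 2.64) at P11 than at P8. The log2 ratio of P11 to P6 was -4.25, and lay between -4.51 and -3.95 over 12 other ways of scaling and cell selection.

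Kcnq5 had a smaller ratio. It had 185 CPM at P6, 57.9 CPM at P8 and 124 CPM at P11, 1.49-fold lower (95% counting interval 1.45 to 1.52) at P11 than at P6. Kcnq1, known from heart and inner ear, stayed under 5 CPM. Of Kcnq UMIs, Kcnq3 made up 38.5%, 17.7% and 4.79% at the 3 ages and Kcnq5 46.6%, 52.9% and 74.2%. The share of Kcnq3 was thus highest at P6 and that of Kcnq5 at P11. Kcnq1ot1, a long non-coding RNA read against Kcnq1 from an imprinted locus, had 124, 45.7 and 76.5 CPM.

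Among delayed rectifier genes, Kcnb2 and Kcnc2 were at least 2-fold lower at P11 than at P6. Kv2 genes make slow delayed rectifiers, and Kcnb2 had 225 CPM at P6, 66.8 CPM at P8 and 74.3 CPM at P11, 3.03-fold lower (95% counting interval 2.95 to 3.11) at P11 than at P6. Kv3 channels open at strong depolarization and close fast. Of their genes, Kcnc1 had 26.9, 16.4 and 19.9 CPM, and Kcnc2 had 8.29, 1.30 and 1.71 CPM, 4.86-fold lower (95% counting interval 4.11 to 5.77) at P11.

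Kv1 channels open near rest and damp excitability. Kcna2 had 12.6 CPM at P6, 12.1 CPM at P8 and 19.8 CPM at P11, 1.57-fold higher (95% counting interval 1.46 to 1.69) at P11 than at P6. Kcna6 had 7.30 CPM at P6, 3.34 CPM at P8 and 1.23 CPM at P11, 5.93-fold lower (95% counting interval 4.89 to 7.24), and Kcna4, an inactivating member, had 6.04, 3.13 and 3.38 CPM. Kcna2 made up 45.9%, 62.7% and 80.3% of Kv1 UMIs at P6, P8 and P11. The cytoplasmic Kv beta subunit gene Kcnab1, whose protein can block the Kv1 pore from inside, had 196, 90.5 and 156 CPM. Of the ERG genes in the EAG family, Kcnh7 had 361, 135 and 234 CPM and Kcnh2, the mouse gene of the human channel HERG, had 25.3, 23.5 and 29.2 CPM. Genes of silent subunits, which only work together with other Kv subunits, summed to 1.203, 1.84 and 1.38 CPM, and Kcng2 was the most abundant, with 0.547, 1.44 and 1.01 CPM.

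Among inward rectifier genes, the strong rectifier genes Kcnj12 and Kcnj2 were at least 2-fold higher at P11 than at P6. The measured genes of G protein-gated channels lay within 2-fold. Kcnj12, which encodes Kir2.2, had 10.5 CPM at P6, 15.04 CPM at P8 and 37.0 CPM at P11, from 863, 940 and 3818 UMIs. It was 3.53-fold higher (95% counting interval 3.28 to 3.80) at P11 than at P6 and 1.43-fold higher (95% counting interval 1.31 to 1.57) at P8 than at P6. Kcnj2, which encodes Kir2.1, had 2.66 CPM at P6, 3.10 CPM at P8 and 8.11 CPM at P11, 3.05-fold higher (95% counting interval 2.62 to 3.55) at P11. Kcnj12 lies on chromosome 11, 61022564 to 61071131, plus strand of mm10. Both are strong rectifiers, which hold many cells near the potassium potential. Their shares of Kir UMIs were 3.19%, 8.41% and 11.97% for Kcnj12 and 0.811%, 1.73% and 2.63% for Kcnj2 at P6, P8 and P11. The other Kir2 genes, Kcnj4 and Kcnj14, stayed under 1 CPM.

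The G protein-gated (GIRK) genes did not reach 2-fold between P11 and P6. Kcnj3 (GIRK1) had 176 CPM at P6, 89.2 CPM at P8 and 146 CPM at P11, 1.21-fold lower (95% counting interval 1.18 to 1.23), although the log2 ratio turned to 0.03 with span adjustment. Kcnj6 (GIRK2) had 94.4 CPM at P6, 42.6 CPM at P8 and 70.5 CPM at P11, 1.34-fold lower (95% counting interval 1.30 to 1.38). Kcnj9 (GIRK3) had 43.3 CPM at P6, 28.2 CPM at P8 and 46.7 CPM at P11, 1.078-fold higher (95% counting interval 1.03 to 1.13). Kcnj5, the fourth gene of that class, had 0, 0 and 5 UMIs. The glial channel gene Kcnj10 had 4, 0 and 1 UMIs, and the whole Kir family stood at 328, 179 and 309 CPM.

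K2P genes held the most extreme ratio of the set. Kcnk13 encodes THIK-1, a leak channel best known from microglia. It had 18.0 CPM at P6, 1.76 CPM at P8 and 0.0969 CPM at P11, from 1482, 110 and 10 UMIs, and was 186-fold lower (95% counting interval 101 to 388) at P11 than at P6. Already at P8 it was 10.2-fold lower (95% counting interval 8.43 to 12.5) than at P6. Its gene lies on chromosome 12, 99964499 to 100062682, plus strand of mm10, and spans 98.2 kb.

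Since microglia are a known source of Kcnk13, their markers were set beside it. In horizontal cells of the 3 ages the 6 microglial markers summed to 11.5, 5.31 and 4.36 CPM, most of it P2ry12, and 4 of the 6 were under 1 CPM at every age. Without the 847, 301 and 422 cells that held a UMI of any of these markers, the log2 ratio of Kcnk13 was -7.72, against -7.54 with them. At P6, 1103 of 7145 horizontal cells (15.4%) held a Kcnk13 UMI. The level of Kcnk13 in the 197 P6 barcodes that lacked all 3 lineage genes was 5.47 CPM, from 3 UMIs, below that of horizontal cells. Leaving out cells with a marker UMI does not remove free RNA. The part of microglia or free RNA in the Kcnk13 level was not tested.

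The other K2P genes had smaller ratios. Kcnk1 (TWIK-1) had 50.1 CPM at P6, 51.7 CPM at P8 and 63.8 CPM at P11, 1.27-fold higher (95% counting interval 1.22 to 1.32) at P11 than at P6. Kcnk3 (TASK-1), an acid-sensitive leak channel, had 33.4 CPM at P6, 19.9 CPM at P8 and 16.2 CPM at P11, 2.05-fold lower (95% counting interval 1.93 to 2.18). Kcnk2 (TREK-1), opened by stretch and lipids, had 3.13, 5.20 and 2.05 CPM and was the only gene of the 36 with its highest level at P8. In the barcodes without lineage genes Kcnk2 stood at 249.8, 49.4 and 55.2 CPM, far above horizontal cells, and it overlaps another gene on its strand. Of K2P UMIs, Kcnk1 made up 47.4%, 65.2% and 76.8%, Kcnk3 31.5%, 25.1% and 19.6% and Kcnk13 17.03%, 2.22% and 0.117% at P6, P8 and P11.

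Kcnma1, Kcnn2 and Kcnt2, pore genes of calcium- or sodium-activated channels, had lower levels at P11 than at P6. Kcnma1, the pore of the large-conductance calcium-activated BK channel, had the most UMIs of all 101 genes, at 752 CPM at P6, 258 CPM at P8 and 361 CPM at P11, 2.09-fold lower (95% counting interval 2.06 to 2.11). None of its beta subunit genes reached 5 CPM. Kcnn2, the pore gene of a small-conductance (SK) channel, had 90.5, 36.5 and 60.3 CPM, 1.501-fold lower (95% counting interval 1.45 to 1.55) at P11. Kcnt2, which encodes the sodium-activated channel Slick, had 30.8 CPM at P6, 6.72 CPM at P8 and 3.82 CPM at P11, 8.07-fold lower (95% counting interval 7.25 to 8.99), and its relative Kcnt1 stayed under 1 CPM. Kcnu1, best known from sperm, had 7.86, 4.51 and 7.48 CPM. Kcne1l, a single-span regulatory subunit gene, had 8.61 CPM at P6, 6.25 CPM at P8 and 1.82 CPM at P11, 4.73-fold lower (95% counting interval 4.02 to 5.58), and the other Kcne genes had 0 to 3 UMIs at each age.

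Below the 5 CPM minimum, Kcnh8, Kcnmb4, Kcnh1 and Kcnn3 also had fewer UMIs at P11 (these were named after their values were seen). Kcnh8 had 279, 19 and 6 UMIs and Kcnn3 had 144, 23 and 10. Kcnmb4, the neuronal BK beta subunit gene, had 3.60, 1.44 and 0.349 CPM, and Kcnh1 had 3.99, 0.688 and 0.9403 CPM. Kcnrg, whose protein is a regulator related to Kv channels, had 0.717, 0.256 and 0.242 CPM.

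**Figure D4:**
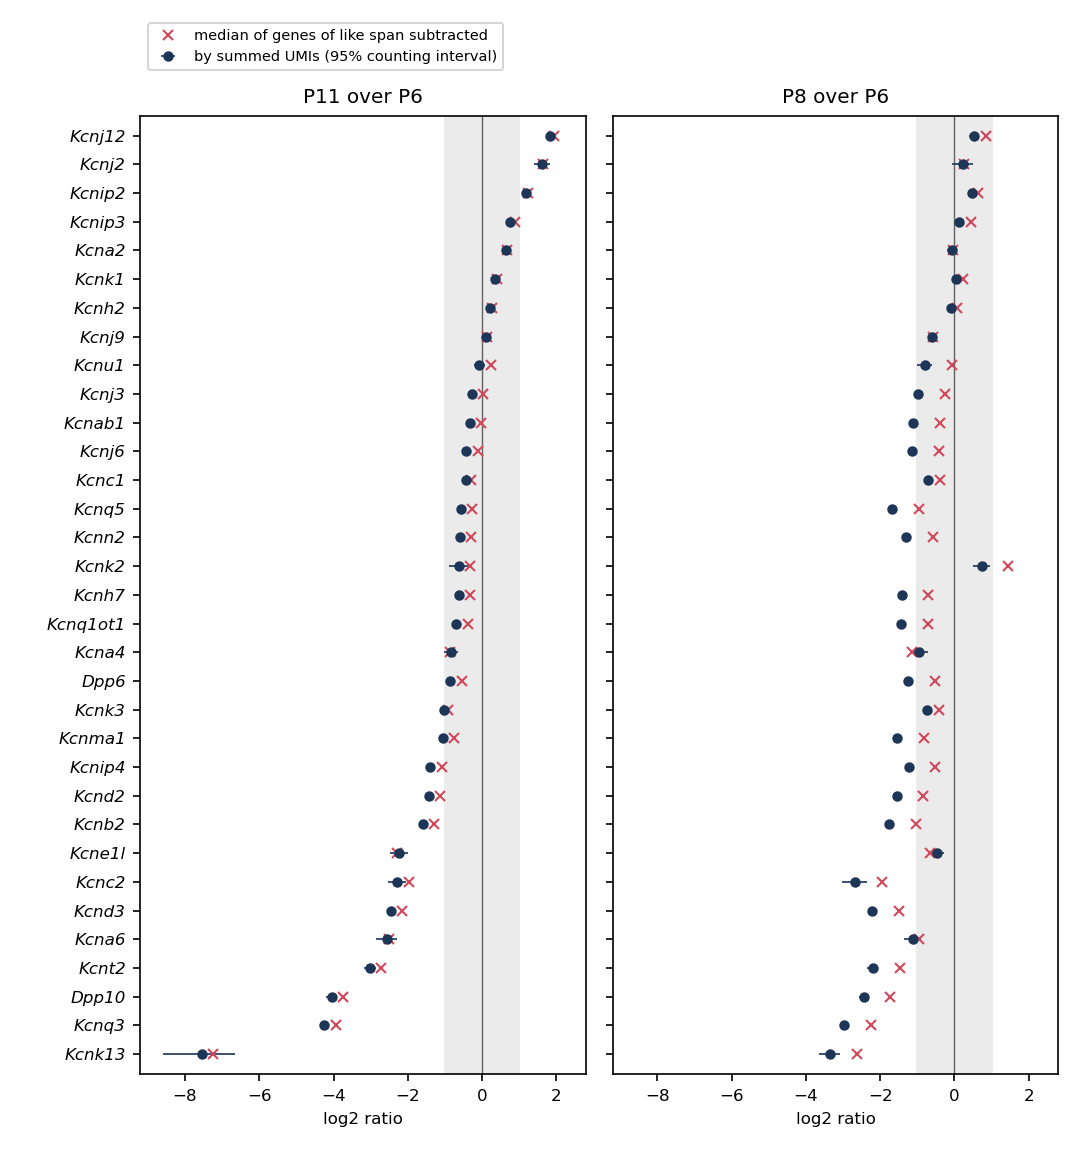
Log2 ratio of P11 over P6 (left) and of P8 over P6 (right) for 33 of the 36 genes, ordered by the left panel. Circles are ratios of CPM with exact 95% counting intervals, crosses the same ratios with the median of genes of like span subtracted, and the grey band marks less than 2-fold. On the left 3 genes lie right of the band and 13 left of it, and on the right 18 circles but fewer crosses lie left of it.

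Between P11 and P8, 32 genes were measured. Of these, 3 were at least 2-fold higher (Kcnj2, Kcnj12 and Kcnq5) and 4 at least 2-fold lower (Kcne1l, Dpp10, Kcnk2 and Kcnq3). Kcnk13 was not among the measured genes here, with 1.76 CPM at P8 and 0.0969 CPM at P11. Over all 10109 measured features, 2.44% were higher and 1.38% lower by this measure, and in the longest span quintile 6.28% and 1.09%. The median log2 ratio was 0.56 for the channel genes and, after subtraction of span medians, 0.22. Kcnq5 was 2.15-fold higher (95% counting interval 2.07 to 2.23) at P11 than at P8, but not 2-fold once the span median was subtracted. Of the 4 lower genes, Kcne1l, Dpp10 and Kcnq3 were also lower at P8 than at P6, Kcne1l by 1.38-fold. Kcnk2 instead was 1.66-fold higher at P8 than at P6.

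A lower summed level can come from fewer cells with the transcript or from less of it per cell, and at these depths both shift the share of cells with a UMI. Every cell was therefore thinned to 3000 UMIs, which left 6768, 3056 and 4667 cells and left out 377, 97 and 90. In thinned cells Kcnq3 was seen in 33.3%, 5.27% and 2.01% at P6, P8 and P11, and unthinned in 64.2%, 25.8% and 11.1%. Dpp10 was seen in 14.6%, 3.60% and 1.01% of thinned cells and in 38.6%, 16.8% and 5.21% unthinned. Kcnk13 was seen in 5.17%, 0.687% and 0% of thinned cells, where 0 of 4667 cells at P11 allows, by a limit of 3 counts, up to 0.0643% of cells with a UMI at that thinned depth. Unthinned, it was seen in 15.4%, 3.11% and 0.210%, which at P11 is 10 of 4757 cells.

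The genes higher at P11 showed the opposite order. Kcnj12 was seen in 2.90%, 4.25% and 10.2% of thinned cells at P6, P8 and P11, and in 11.2%, 24.1% and 52.8% unthinned. Kcnip2 was seen in 4.92%, 6.38% and 9.96% thinned and 16.4%, 33.4% and 50.3% unthinned. Kcnip3 was seen in 16.9%, 19.8% and 27.8% thinned and 47.5%, 69.9% and 86.3% unthinned. Kcnma1, by contrast, was seen in 84.6%, 51.1% and 61.4% of thinned cells and in over 90% of unthinned cells at every age, its lowest unthinned share being 94.1% at P8.

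Barcodes without any lineage gene UMI serve as a measure of other cells and free RNA in the same libraries. They numbered 197, 63 and 111, with a median of 2314, 3018 and 3463 UMIs. Their summed horizontal markers stood at 1787, 2369 and 2898 CPM, and rod, bipolar and Müller markers at 1369, 1526 and 1247 CPM at P6. In them Kcnip4 had 955, 1117 and 1344 CPM at P6, P8 and P11, Kcnb2 851, 538 and 644 CPM and Kcnma1 755, 579 and 923 CPM, levels near or above those of horizontal cells. Dpp10 had 189.6, 26.9 and 123 CPM, from 104, 6 and 60 UMIs, above horizontal cells at every age. Kcnq3 had 43.8, 22.4 and 102 CPM, from 24, 5 and 50 UMIs, above horizontal cells at P11. Its P8 level rests on 5 UMIs and is close to the 19.4 CPM of horizontal cells. After thinning to 3000 UMIs, Kcnq3 was seen at P8 in 1 of 34 such barcodes (2.94%), against 5.27% of horizontal cells. Kcnj12 had 1.82, 4.49 and 18.4 CPM and Kcnip3 20.1, 44.9 and 28.6 CPM, below horizontal cells at each age. These levels rest on few UMIs, 1, 1 and 9 for Kcnj12 and 11, 10 and 14 for Kcnip3. Among cells thinned to 3000 UMIs, Dpp10 was seen in 8 of 62 such barcodes at P11 (12.9%) and Kcnq3 in 9 of 62 (14.5%), both above the shares in horizontal cells. At P6, Dpp10 was seen in 19 of 58 such barcodes (32.8%), against 14.6% of horizontal cells. Rod markers summed to 4142 CPM in these barcodes at P11, against 11.1 CPM in horizontal cells. The part of other cells or free RNA in the Dpp10 and Kcnq3 levels was not tested. Kcnj12 was seen in 4 of 62 such barcodes at P11 (6.45%), with an interval of 1.79% to 15.7% that holds its share of 10.2% in horizontal cells.

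The remaining P11 UMIs of some lower genes sat in few cells. The 48 horizontal cells with the most Dpp10 UMIs, 1% of the P11 cells, held 186 of its 390 UMIs (47.7%). For Kcnq3 the top 48 cells held 227 of 829 UMIs (27.4%), for Kcnt2 112 of 394 (28.4%) and for Kcnc2 175 of 176 (99.4%). For Kcnip4, an abundant gene, they held 5.62%. A gene with few UMIs can reach high shares in its top cells by counting alone, so these shares are given as a description. Only 49 of 4757 P11 horizontal cells held a Kcnc2 UMI, so its top 48 cells hold nearly all of them by definition. How the UMIs of these genes spread over cells was not tested.

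For Dpp10, Kcnq3, Kcnc2, Kcnt2 and Kcnip4 alike, those cells had higher ganglion and bipolar marker sums and lower horizontal and amacrine sums than the rest. The 48 cells with the most Dpp10 had a median of 25490 UMIs, against 22094 in the other P11 horizontal cells. In the 48 cells with the most Dpp10, horizontal markers summed to 14649 CPM, against 19488 CPM in the others, and amacrine markers to 4178 CPM, against 4976 CPM. Ganglion cell markers summed to 3037 CPM there, against 1364 CPM, and bipolar markers to 115 CPM, against 52.6 CPM. In the 48 cells with the most Kcnq3, ganglion cell markers summed to 3101 CPM, against 1362 CPM in the other cells, and in those with the most Kcnc2 to 3467 CPM, against 1359 CPM. The top cells of the abundant Kcnip4 also had a higher ganglion sum, of 2516 CPM, against 1367 CPM. Their horizontal sum was lower, at 15922 CPM, against 19481 CPM. In the top cells of Kcnt2 the ganglion sum was 1554 CPM, against 1382 CPM, and the horizontal sum 18072 CPM, against 19444 CPM. The Kcnq3 and Dpp10 cells had 11 of 48 in common. Outside its top cells, Dpp10 stood at 2.002 CPM and Kcnq3 at 5.91 CPM at P11. With a UMI of all 3 lineage genes required, the log2 ratio of Kcnc2 between P11 and P6 was -3.06 instead of -2.28.

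Cells within the P6 library were also set apart by Mgarp, a mitochondrial protein gene whose level in horizontal cells was 159.7 CPM in the P6 library, 2641 CPM in the P8 library and 5433 CPM in the P11 library. This split was chosen after the data were seen. After thinning to 3000 UMIs, 2131 P6 cells held a Mgarp UMI and 4637 held none. All these cells come from 1 library, so library and age are the same on both sides, while cells are not replicates. None of 35 channel genes with at least 5 CPM on either side reached 2-fold, and the median log2 ratio was -0.14, against -0.01 over all 10451 features at that minimum.

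Of 34 channel genes with at least 100 UMIs in both groups together, the interval of the ratio of Mgarp-positive to Mgarp-negative cells lay below 1 for 16, above 1 for 2 and held 1 for 16. The same count was not made over all features, so it is not read as a trait of the channel genes. Many UMIs give narrow intervals, and Kcnip4 counted as below 1 at a ratio of 0.955 (0.918 to 0.994). Several genes at least 2-fold lower at P11 were lower in Mgarp-positive cells too. For Kcnk13, Kcnt2, Kcna6, Kcne1l and Kcnk3, also at least 2-fold lower at P11, the interval held 1. Some genes within 2-fold between P11 and P6 also had intervals below 1, among them Kcnq5, Kcnj3, Kcnj6, Kcnn2 and Kcnq1ot1. A lower level in Mgarp-positive cells was thus not particular to the genes at least 2-fold lower at P11. Kcnq3 had 122 CPM in Mgarp-positive cells, against 176 CPM in Mgarp-negative cells, 1.44-fold lower (1.33 to 1.57). Dpp10 had 51.6 CPM in Mgarp-positive cells, against 65.5 CPM in Mgarp-negative cells, 1.27-fold lower (1.12 to 1.44). Kcnd3 had 36.9 CPM in Mgarp-positive cells, against 46.4 CPM in Mgarp-negative cells. For all 3 the ratio was nearer to 1 than that between P11 and P6. Kcnk13 had 17.8 CPM in Mgarp-positive cells, against 19.3 CPM in Mgarp-negative cells, a ratio of 0.922 whose interval of 0.734 to 1.15 holds 1. Kcnj12 had 12.2 CPM in Mgarp-positive cells, against 8.55 CPM in Mgarp-negative cells, 1.43-fold higher (1.06 to 1.91). The other genes at least 2-fold higher at P11 had intervals that hold 1, with a ratio of 1.083 (0.858 to 1.36) for Kcnip2 and, from 15 and 49 UMIs, of 0.666 (0.347 to 1.21) for Kcnj2. Kcnip3 had 70.4 CPM in Mgarp-positive cells, against 60.7 CPM in Mgarp-negative cells, 1.16-fold higher (1.03 to 1.30).

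**Figure D5:**
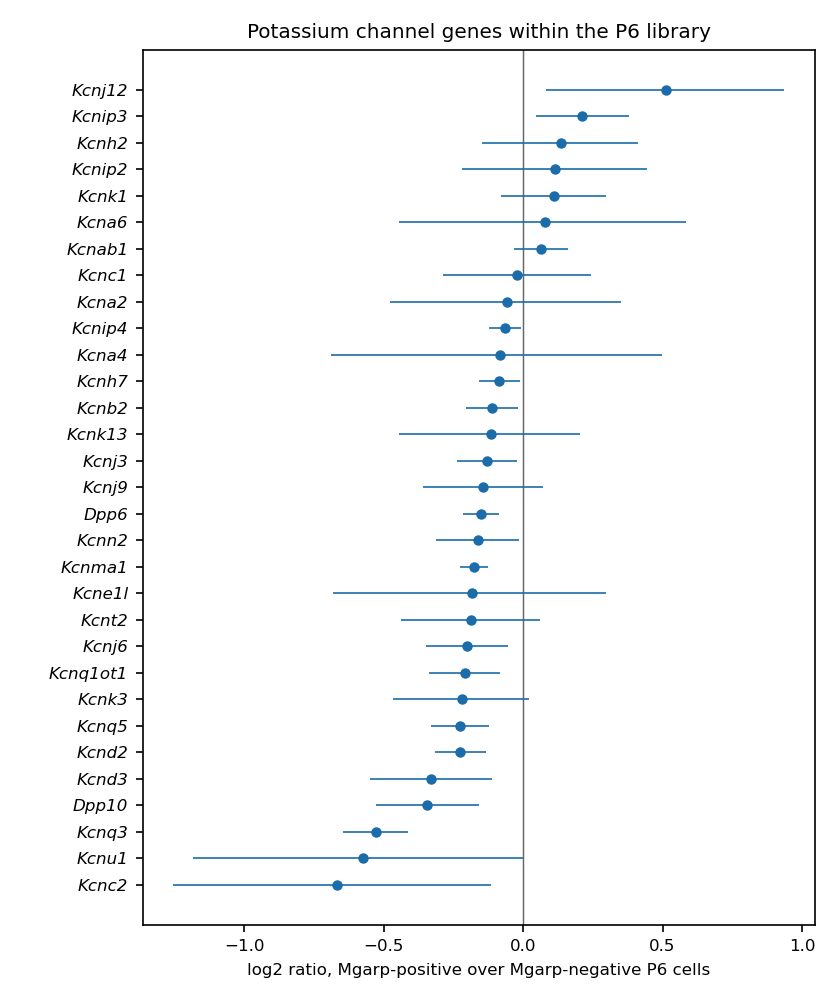
Log2 ratio of Mgarp-positive over Mgarp-negative P6 cells, each thinned to 3000 UMIs, for 31 potassium channel genes with at least 100 UMIs in both groups together. Points are ratios of CPM and bars exact 95% counting intervals. Kcnj12 and Kcnip3 lie right of 0 with their intervals, and the ratios run from 0.629 (Kcnc2) to 1.43 (Kcnj12).

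Proteins that assemble with potassium channels or place them in the membrane were followed as a list of 24 genes without Kcn symbols. Between P11 and P6, 16 were measured, 2 passed the higher limit of 2-fold and 4 the lower one, against 2.84% and 7.05% of all measured features. The median log2 ratio was -0.07, and 0.11 after subtraction of span medians. Abcc9, the sulfonylurea receptor SUR2 of ATP-sensitive potassium channels, had 2.41, 4.72 and 20.5 CPM at P6, P8 and P11, 8.54-fold higher at P11 than at P6. Its pore partners were low, with 3, 5 and 15 UMIs of Kcnj8 and 0.571, 0.304 and 0.494 CPM of Kcnj11, while the related receptor gene Abcc8 had 11.8, 8.61 and 17.4 CPM. Pericytes are a known source of both Abcc9 and Kcnj8. Pericyte markers, a list that includes Kcnj8 itself, summed to 4.26, 3.77 and 2.55 CPM in horizontal cells, most of it Rgs5. Pdgfrb had 0, 0 and 1 UMIs. The part of pericytes in the Abcc9 level was not tested.

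Cntnap1, which encodes the axonal adhesion protein Caspr, had 54.5, 86.5 and 112 CPM, 2.06-fold higher at P11. Its relative Cntnap2, which gathers Kv1 channels along axons, had 88.6, 32.1 and 21.6 CPM, 4.097-fold lower. Amigo2, a relative of the Kv2 partner Amigo1, had 247, 127 and 66.1 CPM, 3.74-fold lower, while Amigo1 itself had 9.83, 9.20 and 13.7 CPM. Adam11, a membrane protein that in mouse cerebellum places Kv1 channels at basket cell terminals, had 65.8, 21.4 and 18.1 CPM, 3.63-fold lower. Lgi2, a secreted ligand of this protein family, had 5.52, 2.77 and 2.45 CPM, 2.25-fold lower.

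Other cation channels formed a list of 15 genes, among them those of sodium channels, Nalcn and Cnga channels. Of these 11 were measured between P11 and P6, 0 passed the higher limit of 2-fold and 1 the lower one, which is near the 7.05% of all measured features. The median log2 ratio was -0.59, and -0.29 after subtraction of span medians. The lower gene was Scn3b, a sodium channel beta subunit gene, with 21.7, 12.6 and 9.24 CPM. Nalcn, a sodium leak channel, had 114, 69.5 and 137 CPM.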

How the data were processed

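The authors deposited raw UMI counts per gene and barcode for 3 libraries, with values as whole numbers. They were made with Cell Ranger 7.1.0 on mm10, per the submitters' processing notes, while the annotation release is not given in the sources used here, nor is whether intron reads were counted. Intron counting matters for long genes, whose pre-mRNA can add UMIs. Gene positions came from GENCODE vM21 of the same build, matched by gene ID.

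The genes and lists were chosen with earlier results of these data known. Counts of kept cells (at least 1000 genes, at most 10% mitochondrial UMIs, at least 2 of 3 lineage genes) were added up within each library and scaled to 1000000 of the cells' UMIs (CPM). For ratios, a library with 0 counts was set to 3 counts. Ratios were computed with scipy 1.17.1 and checked on simulated data. Named are genes with at least 20 CPM at any age, those at 5 CPM or more that differed 2-fold between any ages, and the most abundant gene of each family. Some genes that this rule covers are not reported here.

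Scrublet in scanpy 1.11.5 marked 0.0528%, 1.01% and 0.384% of cells at its own threshold at P6, P8 and P11, so doublets were kept, and an alternative removed the cells with the highest scores (7.45%, 4.88% and 5.05%). Further alternatives used TMM factors of edgeR 4.0.16 or median-of-ratios factors of DESeq2 1.42.0, for scaling only, other cell limits, per-cell means, thinning to 3000 UMIs, and subtraction of the median log2 ratio of genes in the same span quintile.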

Additional observations from a re-analysis of the deposited data

How the results depend on the processing

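Of 117 log2 ratios followed over the alternatives, 12 changed sign, 0 of them at least 2-fold in the reported values. Among these were, with span adjustment, Kcnj3 and Kcnu1 between P11 and P6 (0.03 and 0.23) and Dpp6, Kcnb2 and Kcnd2 between P11 and P8 (-0.01, -0.25 and -0.27). With median-of-ratios scaling they included Kcnh2 and Kcna2 between P8 and P6 (0.21 and 0.25) and the Kir, Kv1 and Slo3 totals between P11 and P6 (0.10, 0.03 and 0.12). TMM also turned Kcnu1, Kcnh2, Kcna2 and these 3 totals, median-of-ratios turned Kcnu1, span adjustment turned Kcnh2, and thinning turned Kcnu1. The cause was not tested. Of the 16 channel genes at least 2-fold apart between P11 and P6, 14 stayed so with TMM, median-of-ratios or span adjustment (Kcnk3 and Kcnma1 did not), 15 with per-cell means (Kcnk3 did not), and 16 with the other cell selections, doublet removal and thinning. Of 18 between P8 and P6, 13, 12 and 7 stayed with TMM, median-of-ratios and span adjustment. TMM moved the median of all features by 0.18 between P11 and P6, by 0.29 between P8 and P6 and by -0.10 between P11 and P8. Kcnq5 was the gene lost between P11 and P8, under median-of-ratios, per-cell means and span adjustment.

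Counts moved by over 1.5 times as follows. With no CPM minimum, which adds genes of few UMIs, 6 were higher and 32 lower of 80 between P11 and P6, 2 higher and 40 lower of 78 between P8 and P6, and 12 higher and 16 lower of 78 between P11 and P8. With a 20 CPM minimum, 0 were lower between P11 and P8. Between P8 and P6, 1 gene was higher with TMM, median-of-ratios, span adjustment, cells of at least 10000 UMIs or a 1.5-fold limit, and 8 were lower with span adjustment. At 1.5-fold, 5 were higher between P11 and P6 and 16 between P11 and P8. The selections of deep cells, of cells without microglial UMIs and the 1.5-fold limit were added after seeing the data. In thinned cells Kcnk13 had 0 UMIs at P11, and its log2 ratio of -6.46 uses the floor.

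No paired analysis was possible because there was 1 library per age. The 10 Kcnk13 UMIs at P11 limit its ratio to within 101- and 388-fold lower by counting error alone.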
